A study of Sus scrofa with 50 samples.

Results

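Ribosomal protein genes of the cytosolic ribosome were followed through 3 stages of porcine preimplantation development, in embryos that developed in vivo and in embryos produced in vitro. The members were the genes whose porcine symbol starts with RPL or RPS, leaving out the S6 kinases, that were over 0.5 CPM in at least 1 embryo. CPM are the reads of a gene per 1000000 reads (1 M) of its library, on a library size that the authors had rescaled with a normalization factor. Of 30321 gene identifiers, 85 carried such a symbol and 84 passed the level. They comprised 76 core genes, 45 of the large and 31 of the small subunit, and 7 paralogs that were kept apart: RPL3L, RPL7L1, RPL10L, RPL22L1, RPL26L1, RPL36AL and RPS27L. The remaining member, RPS19BP1, is named for binding a ribosomal protein and does not belong to the ribosome. The identifier that failed was a second locus named RPL18, with at most 0.246 CPM in any embryo. The core genes lay on 17 chromosomes with at most 12 on any of them. Mammalian genomes hold many near-identical pseudogene copies of these genes, and how reads that match several copies were counted is not given in the sources used here, so the levels of single members are uncertain to that extent.

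Each library came from 1 whole embryo, prepared from polyadenylated RNA with the Smart-seq2 protocol. The in vitro embryos were 5 4-cell embryos (day 2), 10 morulae (day 4) and 10 hatched blastocysts (day 7). They came from oocytes of abattoir ovaries that were matured, fertilized and cultured in the laboratory, and the younger stages were picked from embryos preselected for normal first cleavage. The in vivo embryos were 5 4-cell embryos (day 2), 10 morulae (day 4) and 10 hatched blastocysts (day 6), flushed from oviducts or uteri of synchronized and inseminated crossbred gilts. Both sources had the same Duroc sire, as frozen sperm in vitro. Each group drew on several gilts or several in vitro experiments that the labels do not assign to embryos, so litter mates could not be told from unrelated embryos and p-values measure the spread between embryos only. The labels give the sex of the later stages. Of in vitro embryos, 3 morulae were female and 7 male, and so were 3 and 7 hatched blastocysts. Of in vivo embryos, 5 morulae were female and 5 male, and 4 hatched blastocysts were female and 6 male.

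Ribosomal proteins are needed in nearly equal amounts for the assembly of ribosomes, and their messenger RNAs start with a terminal oligopyrimidine (TOP) tract through which the kinase mTOR and the RNA-binding protein LARP1 control their translation and stability. In the pig, the oocyte supplies the first transcripts, and the major activation of the embryonic genome falls at the 4-cell stage. Functional nucleoli, where ribosomal subunits are assembled, form around the same time.

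The libraries held 4.20 ± 1.29 M reads counted to genes, as recovered from the CPM and not the number sequenced (SD, n = 49, the depth of 1 in vivo 4-cell embryo not being recoverable), and 3 held less than 2 M. Between 16059 and 17686 genes were detected over 0.1 CPM in the in vitro 4-cell embryos, against 6209 to 13520 in the in vivo 4-cell embryos. Oocyte markers such as GDF9, ZP3 and BTG4 summed to 15484 to 21431 CPM in in vitro and 3013 to 17785 CPM in in vivo 4-cell embryos, and to at most 23.6 CPM in any hatched blastocyst. Trophectoderm markers such as KRT8 and GATA3 summed to 3462 to 9092 CPM in in vitro and 4266 to 9217 CPM in in vivo hatched blastocysts. In morulae they summed to 869 to 2137 CPM in vitro and 1304 to 4922 CPM in vivo, the latter overlapping with hatched blastocysts. Of this list TFAP2C alone had the higher means in morulae, 1237 CPM in vitro and 1224 CPM in vivo, against 553 and 533 CPM in hatched blastocysts. By their sums, both marker lists went with the stage labels. Cumulus, sperm, oviduct and blood markers summed to at most 27.9 CPM in any embryo. The in vitro morula B2 stood apart with 2287 CPM of oocyte markers, against 63.7 to 288 CPM in the other 9 in vitro morulae. The in vivo morulae B2 and G1 had 11150 and 10889 genes detected, against 12471 to 14978 in the other 8.

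The 76 core genes together were scarce at the 4-cell stage and abundant at both later stages. In in vitro embryos their summed level was 4715 ± 1078 CPM at the 4-cell stage (SD, n = 5), 68416 ± 17599 CPM in morulae (n = 10) and 98441 ± 6129 CPM in hatched blastocysts (n = 10). In in vivo embryos it was 2808 ± 203 CPM at the 4-cell stage (n = 5), or 4269 without the normalization factor (plain RPM), 96791 ± 34954 CPM in morulae (n = 10) and 97389 ± 24835 CPM in hatched blastocysts (n = 10). The stages did not overlap between 4-cell embryos and morulae in either source, whereas morulae and hatched blastocysts overlapped in both. On the rescaled CPM, the in vitro overlap came from the morula E2 alone, with 112386 CPM. The other 9 in vitro morulae had at most 74874 CPM and the in vitro hatched blastocysts at least 86418 CPM. As a share of all reads, the core genes took 0.497% of the reads in in vitro and 0.427% in in vivo 4-cell embryos. The in vivo 4-cell shares ran from 0.331% in A1 to 0.662% in C1, with a coefficient of variation of 33.1%. On the rescaled CPM that coefficient was 7.24%, so the small spread of the in vivo 4-cell sums depended on the rescaling. C1 had the lowest CPM summed over all genes. In morulae the shares were 7.87% in vitro and 8.76% in vivo, and in hatched blastocysts 8.53% in vitro and 8.09% in vivo. By share of reads the in vitro overlap was not limited to E2. The in vitro morulae F1 (9.37%) and G2 (8.18%) also lay above the lowest in vitro hatched blastocyst, E4 (8.12%). All these are relative levels in whole embryos, in which fewer cells of a type and less RNA per cell cannot be told apart.

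**Figure D1:**
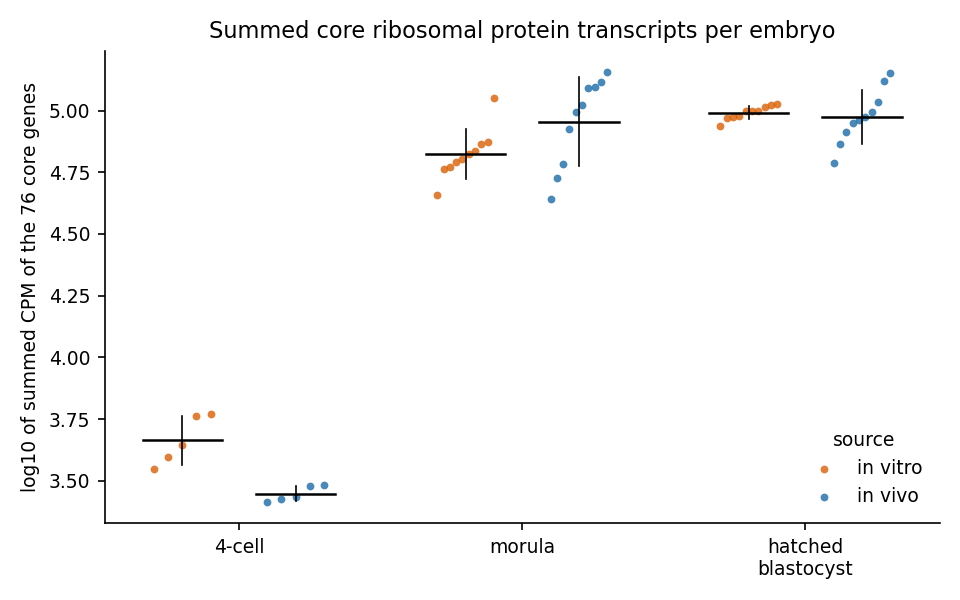
Summed CPM of the 76 core ribosomal protein genes (log10 scale) in each embryo by stage, with in vitro embryos left of in vivo embryos. Points are embryos, horizontal bars the mean of the log10 values and vertical lines 1 SD; all morulae and hatched blastocysts lie at or above 43979 CPM and all 4-cell embryos at or below 5894 CPM.

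The spread between embryos also differed by stage and source. In vitro hatched blastocysts ran from 86418 to 106577 CPM of summed core transcripts, with a coefficient of variation of 6.23%. In vivo hatched blastocysts ran from 61567 CPM in D3 to 142172 CPM in H4, with a coefficient of variation of 25.5%. As a share of reads, without the rescaling, the coefficients of variation were smaller, 3.76% in vitro and 15.7% in vivo. In some groups 1 embryo was extreme across most genes: D3 was the lowest of the 10 in vivo hatched blastocysts for 65 of the 76 core genes, and H4 the highest for 53. Among in vitro morulae, B2 was the lowest for 62 core genes and E2 the highest for 69. Among in vivo morulae, G1 was the lowest for 53. Among in vitro 4-cell embryos, D1 was the lowest for 59 and A1 the highest for 54. In the other groups the extremes were split among embryos. In in vivo 4-cell embryos A1 to E1, 15, 24, 17, 6 and 14 core genes had their lowest value, and in in vitro hatched blastocysts B4 and E4 were each the lowest for 26.

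The 45 large subunit genes exceeded the 31 small subunit genes in sum on average in all 6 groups. The ratio of their sums was 1.16 ± 0.16 in in vitro 4-cell embryos, 1.35 ± 0.037 in in vitro morulae and 1.33 ± 0.059 in in vitro hatched blastocysts. In in vivo embryos it was 1.42 ± 0.51, 1.46 ± 0.080 and 1.37 ± 0.043 at the same stages, with 2.26 in the 4-cell embryo B1. At the 4-cell stage a few genes carried much of the total. The 3 leading core genes of each embryo held 38.9% of the core reads in in vitro and 32.7% in in vivo 4-cell embryos, against between 10.2% and 11.5% as group means at the later stages. RPS24, a small subunit protein needed for processing of the 18S rRNA precursor (chromosome 14, 80473867 to 80480818 in the RefSeq annotation of Sscrofa11.1), alone held 18.0% in in vitro and 11.0% in in vivo 4-cell embryos. It held 1.22% of the core reads in morulae of either source.

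From the 4-cell stage to the morula, nearly all core genes rose in both sources. A gene was called when its adjusted p was under 0.001 and its log2 fold change exceeded 1 in size, on log2(CPM + 1) with limma and Benjamini-Hochberg adjustment over all genes tested. In in vitro embryos 75 of 76 core genes were called higher in morulae and none lower, where 16.0% of all 21780 genes tested were called higher. Their median log2 fold change was 5.34, against -0.14 over all genes. In in vivo embryos 75 of 76 core genes were called higher and none lower, where 14.9% of all 19834 genes tested were called higher, and the medians were 6.31 and 0.21. Morulae and 4-cell embryos did not overlap for 74 core genes in vitro, against 33.4% of all genes in either direction, and for 75 in vivo, against 18.5%. The added 1 in log2(CPM + 1) makes the fold changes of genes near 0 smaller than those of the CPM.

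**Figure D2:**
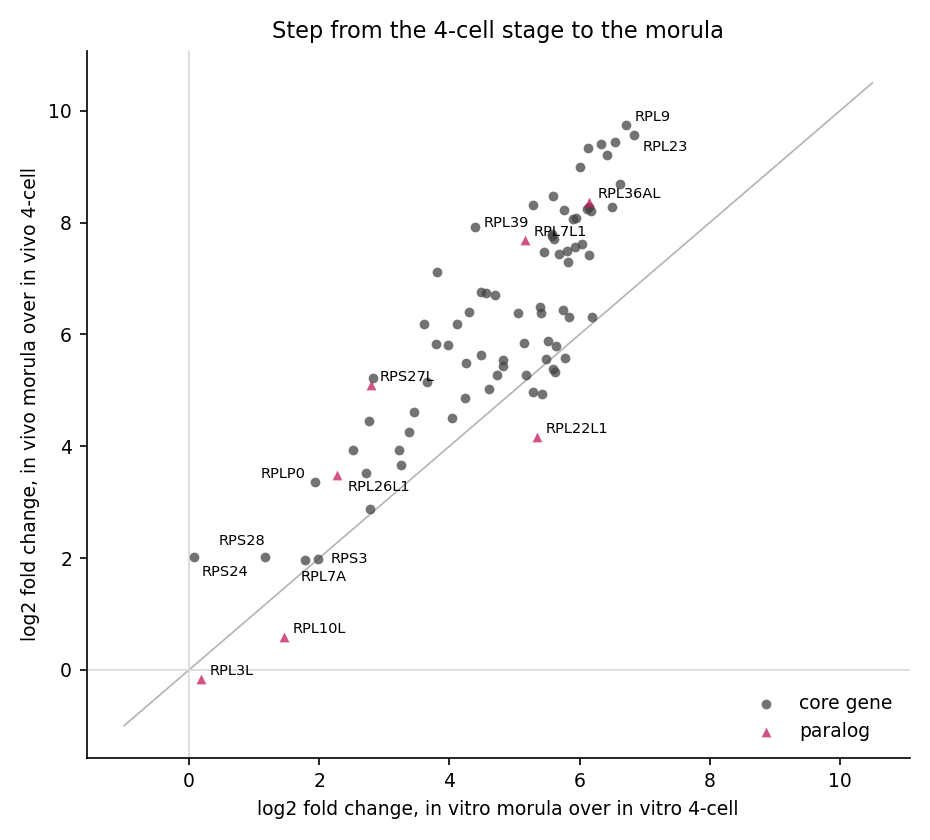
Log2 fold change of morulae over 4-cell embryos on log2(CPM + 1), in vitro on the horizontal and in vivo on the vertical axis, for 76 core genes (circles) and 7 paralogs (triangles). The grey diagonal marks equal steps; 71 core genes lie above it, RPS24 sits near 0 on the horizontal axis, and RPL22L1 is the paralog farthest below the diagonal.

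RPL9 and RPL23 were among the 3 core genes with the largest steps in each source. RPL9, a protein of the large subunit, had 587 to 1713 CPM with a median of 941 in in vitro morulae, against 46.6, 8.57, 4.36, 2.31 and 6.88 CPM in the in vitro 4-cell embryos A1 to E1. Its log2 fold change was 6.71 ± 0.41 (SE), adjusted p = 2.13e-11 with limma. In in vivo morulae it had 610.2 to 2473 CPM with a median of 1674, against 0, 0, 0, 10.6 and 0 CPM in the in vivo 4-cell embryos A1 to E1. RPL9 was thus listed at 0 in all in vivo 4-cell embryos other than D1, and its log2 fold change there was 9.75 ± 0.54 (SE). RPL23, which lies at the interface of the subunits, rose by 6.84 in vitro and 9.57 in vivo on the log2 scale. The third place went to RPS26 in vitro (6.63) and to RPS3A in vivo (9.44), both of the small subunit. In vivo, 32 core genes were listed at 0 in at least 1 of the 5 4-cell embryos, and in vitro none. The number listed at 0 varied by embryo, with 11, 16, 17, 0 and 14 core genes in the in vivo embryos A1 to E1. Over all genes, these embryos had 11214, 10914, 6209, 13520 and 8635 detected over 0.1 CPM, against at least 16059 in vitro. The paper proposes that reduced RNA quality, low input and low cDNA yield might explain the low number. The part of these in the values at 0 and in the in vivo steps was not tested.

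At the other end, a handful of core genes already stood at their morula level or within a few fold of it in 4-cell embryos. RPS24 had 614 to 1307 CPM with a median of 808 in in vitro morulae, against 607, 588, 801, 1138 and 805 CPM in the in vitro 4-cell embryos A1 to E1. The groups overlapped and the log2 fold change was 0.069 ± 0.21 (SE), adjusted p = 0.785 with limma, with a 95% interval of -0.36 to 0.50. It took the opposite sign when the 4-cell embryo A1 or B1 was left out. In in vivo embryos RPS24 had 580.2 to 1875 CPM with a median of 1072 in morulae, against 346, 279, 116, 227 and 548 CPM in the 4-cell embryos A1 to E1. Here it rose, with a log2 fold change of 2.01 ± 0.39 (SE) and adjusted p = 0.000277, a call that was lost in plain RPM, with edgeR and without the 4-cell embryo D1.

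RPS28, a small protein at the mRNA exit side of the small subunit, rose by 1.16 in vitro and 2.02 in vivo. Its in vitro call was lost without the 4-cell embryo A1, B1, D1 or E1, and its in vivo call in plain RPM. RPL7A, a large subunit protein of a family that binds kink-turns in RNA, rose by 1.78 in vitro. In vivo it was the only core gene not called, with a log2 fold change of 1.97 ± 0.47 (SE) and adjusted p = 0.00194. Its in vivo morulae spread from 216 to 1188 CPM, all above the 108 to 172 CPM of the in vivo 4-cell embryos. RPS3, which helps to hold the mRNA at the entry of its channel, rose by 1.98 in vitro and 1.99 in vivo. The in vivo call of RPS3 was lost in plain RPM, in values scaled on all other genes, with edgeR, without the 4-cell embryo B1 or D1, and without the morulae B2 and G1.

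All 15 genes of the structural groups were called higher at this step in each source, by unequal amounts. In the stalk that recruits the elongation factors, RPLP0, RPLP1 and RPLP2 rose by 1.94, 4.24 and 5.39 in vitro. In vivo they rose by 3.36, 4.87 and 6.49. RPLP0, the anchor of the stalk, had 1709.7 to 5528 CPM with a median of 2346 in in vitro morulae, against 644, 729, 954, 580.0 and 550.2 CPM in the in vitro 4-cell embryos A1 to E1. In in vivo morulae it had 907 to 6146 CPM with a median of 4506, against 385, 1088, 111, 312 and 226 CPM in the in vivo 4-cell embryos A1 to E1. The in vivo groups overlapped, through the high 4-cell embryo B1 and the lowest morula, G1. RPLP0 held 14.9% ± 2.45 of the core reads in in vitro 4-cell embryos. Its mean share in in vivo 4-cell embryos was 14.9% ± 12.4 (SD, n = 5 each), with values from 3.69% to 35.8%, the highest in B1. It held 3.93% in in vitro and 3.79% in in vivo morulae.

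RPL5 and RPL11, which carry the 5S rRNA into the large subunit and bind the p53 regulator MDM2 when free, rose by 2.76 and 4.73 in vitro. In vivo the values were 4.45 and 5.27. RPL4, RPL17 and RPL39, which line the tunnel through which the nascent peptide leaves, rose by 5.41, 5.58 and 4.39 in vitro and by 6.37, 7.80 and 7.91 in vivo. Of the small subunit proteins around the mRNA channel, RPS2, RPS23, RPSA and RPS26 rose by 3.23, 5.90, 3.66 and 6.63 in vitro. Their in vivo values were 3.93, 8.07, 5.14 and 8.70. RPS6, the protein phosphorylated by the S6 kinases downstream of mTOR, rose by 5.51 in vitro and 5.88 in vivo. In RPSA all 10 morulae of a source, with at least 758 CPM in vitro and 747 CPM in vivo, exceeded all 5 4-cell embryos, with at most 181 CPM in vitro and 100.4 CPM in vivo.

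**Figure D3:**
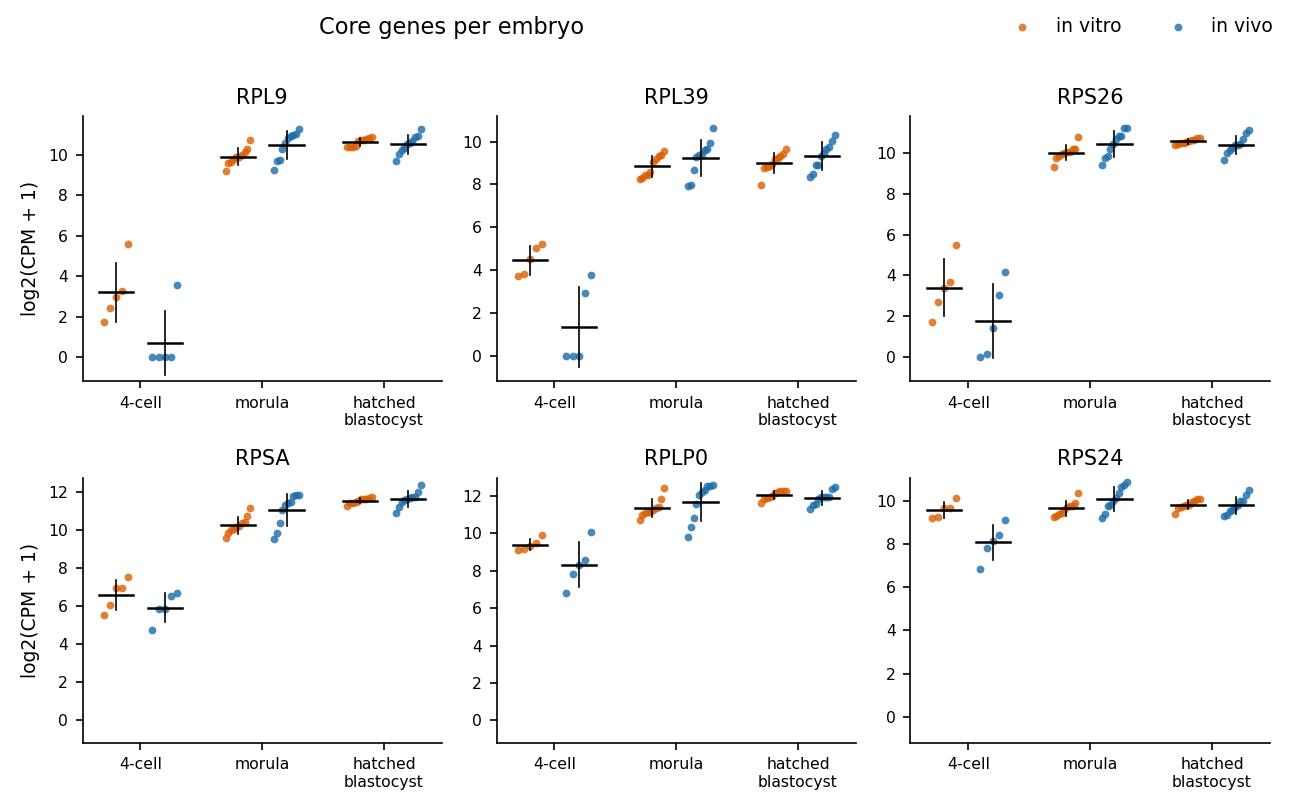
Level of 6 core genes on log2(CPM + 1) in each embryo by stage, in vitro left of in vivo, with horizontal bars at the mean and vertical lines of 1 SD. RPL9, RPL39 and RPS26 show in vivo 4-cell embryos at 0, RPS24 lies between 588 and 1138 CPM in in vitro 4-cell embryos, and later stages of both sources overlap in all 6 genes.

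Whether the first step differed between the sources was tested as an interaction, the in vitro step minus the in vivo step. The core genes had a median of -1.53, against -0.39 over all genes, and 71 of 76 were negative. Of the core genes 2 were called lower, RPL39 among them, and none higher, where 2.80% of all 22588 genes were called lower. At an adjusted p under 0.05 alone, 34 core genes were lower, where 17.1% of all genes were. RPL39 (chromosome X, 98178148 to 98181439) differed by -3.52 ± 0.71 (SE), adjusted p = 0.000706. RPL7 (-3.31) and RPL19 (-3.20) followed without being called, and RPS14 (0.48), RPS9 (0.32) and RPS18 (0.29) had the highest values, all within error of 0.

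RPL39 had little transcript in in vivo 4-cell embryos. RPL39 had 36.1, 22, 31.5, 12.2 and 13.2 CPM in the in vitro and 6.51, 0, 0, 12.7 and 0 CPM in the in vivo 4-cell embryos A1 to E1. In morulae it had 306 to 751 CPM with a median of 451 in vitro and 241 to 1579.5 CPM with a median of 678 in vivo. Under the same limits on adjusted p and fold change, the number of core genes called depended on the setting, from 0 with a pseudocount of 5 to 19 with all 6 groups in 1 fit, and it was 9 without the in vivo 4-cell embryo D1. The shares of all genes called in these settings are not given here. The call of RPL39 was lost, among other settings, with edgeR and DESeq2 and without any 1 of the 4-cell embryos A1, B1 and C1 of the in vitro source, B1, C1 and E1 of the in vivo source, or the in vitro morula B2. The number of genes detected in the 4-cell embryos moved with this difference, and its part in the result was not tested.

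From the morula to the hatched blastocyst, few core genes passed the test. In vitro, RPSA, RPS6 and RPL12 were called higher in hatched blastocysts and none lower, where 9.98% of all 20716 genes tested were called higher. The median log2 fold change of the core genes was 0.51, against -0.11 over all genes, with 72 of 76 positive. At an adjusted p under 0.05 alone, 55 core genes were higher, where 19.4% of all genes were. In plain RPM the core median was 0.083 and no core gene was called, while the median over all genes moved to -0.23. In vivo, RPS3 and RPL28 were called higher and none lower, where 5.81% of all 18399 genes tested were called higher. The core median was 0.069, against 0.012 over all genes, and 11 core genes were higher at an adjusted p under 0.05 alone, where 15.6% of all genes were. The sign of this core median depended on the setting. It was -0.088 in plain RPM, -0.098 scaled on other genes, -0.012 with edgeR, -0.065 with DESeq2 and -0.20 without the in vivo morulae B2 and G1.

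RPSA, a small subunit protein also known as the laminin receptor, had 2492 to 3382 CPM with a median of 3051 in in vitro hatched blastocysts, against 758 to 2278 CPM with a median of 1182 in in vitro morulae. The groups did not overlap, and the log2 fold change was 1.30 ± 0.16 (SE), adjusted p = 2.86e-07 with limma. In vivo it was 0.58 ± 0.29 (SE), adjusted p = 0.151. RPS6 had 1914 to 3173 CPM with a median of 2478 in in vitro hatched blastocysts, against 852 to 1911 CPM with a median of 1041 in in vitro morulae, again without overlap, and rose by 1.17. RPL12, at the base of the stalk, rose by 1.12, a call lost with DESeq2 (0.97) and in a fit of all 6 groups. These 3 genes stayed higher in plain RPM, by 0.87, 0.74 and 0.70, but under the fold limit. The groups did not overlap for 5 of 76 core genes in vitro, where 10.6% of all genes did not overlap. The lowest values in vitro included those of RPL38 (-0.28) and RPS14 (-0.11), neither called.

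RPS3 had 359 to 631 CPM with a median of 494 in in vivo hatched blastocysts, against 90.6 to 498 CPM with a median of 223 in in vivo morulae, and rose by 1.19, adjusted p = 0.000555. RPL28 rose by 1.14, adjusted p = 0.000847. RPL8, which lies near the peptidyl transferase centre, had a log2 fold change of 1.15 ± 0.28 (SE) and adjusted p = 0.00314. The groups overlapped in all 76 core genes in vivo, where 4.63% of all genes did not overlap. The lowest values were those of RPL22 (-0.41), RPL7 (-0.32) and RPS24 (-0.29), with intervals that included 0. Both in vivo calls were lost in 6 alternatives, among them edgeR, DESeq2, plain RPM and leaving out the in vivo morula F1, which had under 2 M reads. That of RPL28 was also lost with sex as a term of the fit.

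Of the structural groups, the stalk, the 5S rRNA binders and the tunnel proteins had no member called at this step in either source. The stalk ranged from 0.13 (RPLP2) to 0.72 (RPLP0) in vitro and from -0.13 (RPLP1) to 0.21 (RPLP0) in vivo. RPL5 had 0.84 in vitro, without overlap of the groups, and 0.30 in vivo, while RPL11 had 0.21 and -0.20. RPL4, RPL17 and RPL39 had 0.76, 0.77 and 0.17 in vitro and 0.16, 0.28 and 0.066 in vivo. Around the mRNA channel, RPS2, RPS23, RPS26 and RPS28 had 0.95, 0.43, 0.55 and 0.69 in vitro, against 0.60, -0.17, -0.042 and 0.21 in vivo.

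The difference of this step between the sources had no core gene called, where 4.49% of all 21442 genes were called in either direction. With limma, 22 core genes had an unadjusted p under 0.05, and edgeR and DESeq2 called 0 as well. The core median was 0.43, against -0.12 over all genes. RPL23A (0.98), RPL12 (0.97) and RPS6 (0.91) had the highest values, and RPS9 (-0.89, adjusted p = 0.00348), RPS14 (-0.77) and RPL28 (-0.35) the lowest. Without the in vivo morulae B2 and G1, 5 core genes were called higher, RPL23A, RPL12 and RPS6 among them. This refit was chosen after seeing the data, and its share of all genes called is not given here.

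Between the sources at the same stage, no core gene was called at any stage. The cDNA profiles differed in quality between the sources before the hatched blastocyst stage, which is why the authors kept them apart there. Beside the genes detected at the 4-cell stage, given above, 14488 to 17873 genes were detected in in vitro and 10889 to 14978 in in vivo morulae, and the part of RNA quality and genes detected in the values was not tested. In 4-cell embryos 0% of all 19927 genes were called. The core genes had a median log2 fold change of in vitro over in vivo embryos of 1.10, against 0.66 over all genes, with 70 of 76 positive and 25 with an unadjusted p under 0.05. The values with limma ran from -0.68 for RPS18, -0.53 for RPS16 and -0.51 for RPL35, all with intervals that included 0, to 2.77 for RPL19 and 3.12 for RPL39. Both edgeR and DESeq2 called 0 core genes, whereas a fit of all 6 groups, which takes 1 spread for all stages, called 20 higher, among 3540 of all 19927 genes called in that fit. The order of the core median and that of all genes turned in other settings. The core genes had 0.27 against 0.80 over all genes with edgeR, 0.14 against 0.82 with DESeq2, 1.47 against 1.59 with a pseudocount of 0.1, and 1.07 against 1.24 among genes over 5 CPM in at least 3 embryos. In vitro 4-cell embryos had the higher mean for 65 core genes and the smaller coefficient of variation for 63, the shares over all genes not being given here.

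RPS24 was 1 of 2 core genes with an adjusted p under 0.05 in this comparison, the share of all genes at that limit not being given here. Its in vitro 4-cell embryos had 588 to 1138 CPM, against 116 to 548 CPM in the in vivo 4-cell embryos, and the log2 fold change was 1.51 ± 0.41 (SE), adjusted p = 0.0457. RPS24 belonged to 7 of 76 core genes without overlap of the groups, RPS4X, RPS20 and RPL7 among them (named here after their values were seen). Of all genes 10.1% did not overlap, so the core genes did not stand out by this count. All 7 were higher in vitro, the side on which the median over all genes (0.66) also lay.

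In morulae 2.47% of all 20570 genes were called between the sources in either direction, and none of the core genes. The core median was -0.42, against 0.11 over all genes, 25 core genes had an unadjusted p under 0.05, and edgeR and DESeq2 called 0. The lowest were RPL10 (-0.85), RPSA (-0.80) and RPL23A (-0.80). RPS14 (0.77, adjusted p = 0.0139), RPS9 (0.67, adjusted p = 0.0153) and RPL13 (0.57) lay on the other side. With sex as a term of the fit, X-linked RPL10 had -0.84, and 0 core genes were called between the sources in morulae or hatched blastocysts. RPS14, the gene lost in the human 5q- syndrome, had 698 to 1525 CPM with a median of 937 in in vitro morulae, against 282 to 976 CPM with a median of 500.2 in in vivo morulae. The in vitro mean was lower for 68 of 76 core genes and the in vitro coefficient of variation smaller for 72, the shares over all genes not being given here. Without the in vivo morulae B2 and G1, 2 core genes were called lower and 60 had an unadjusted p under 0.05. These embryos were left out after seeing the data. The shares of all genes in that refit are not given here, so the counts do not set the core genes apart. In plain RPM the core median was -0.11.

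In hatched blastocysts, where the study itself set the sources against each other, 4.27% of all 17990 genes were called in either direction, and none of the 76 core genes. Age (day 7 in vitro, day 6 in vivo) and the origin of the oocytes went with the source. Their parts cannot be told apart here, nor for the paralogs and the other lists below. The core median was 0.049, against -0.011 over all genes, and 4 core genes had an unadjusted p under 0.05, with 0 called by edgeR or DESeq2. The values ran from -0.43 for RPL38, -0.30 for RPL39 and -0.28 for RPS12 to 0.32 for RPL12, 0.33 for RPL13 and 0.56 for RPS19. RPS19, mutated in human Diamond-Blackfan anaemia, had 1467 to 2147 CPM with a median of 1797 in in vitro hatched blastocysts, against 687 to 1916 CPM with a median of 1180.2 in in vivo hatched blastocysts, with adjusted p = 0.0116. RPL38, known in the mouse for translation of Hox transcripts, had 179 to 357 CPM with a median of 289 in in vitro and 216 to 644 CPM with a median of 366 in in vivo hatched blastocysts, with an interval of the log2 fold change of -0.76 to -0.093. For RPS14 the interval was -0.34 to 0.34 and for RPLP0 -0.19 to 0.52.

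The spread between hatched blastocysts was smaller in vitro for most core genes. The range of the in vitro hatched blastocysts lay inside that of the in vivo hatched blastocysts for 59 of 76 core genes, and the reverse held for 3. The in vitro coefficient of variation was the smaller for 70 core genes, with a median of 13.5% over the core genes, against 29.0% in vivo. RPS23, in the decoding centre, averaged 962 ± 106 CPM in in vitro and 961 ± 337 CPM in in vivo hatched blastocysts (SD, n = 10 each). RPS26 averaged 1532 ± 127 CPM in in vitro and 1423 ± 439 CPM in in vivo hatched blastocysts, and RPL9 1588 ± 217 and 1530.0 ± 489 CPM. The equality of the spreads was not tested. The counts of ranges and coefficients are given without the share over all genes and do not set the core genes apart. The CPM summed over all genes also varied more in vivo, with a coefficient of variation of 11.2%, against 5.76% in vitro.

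**Figure D4:**
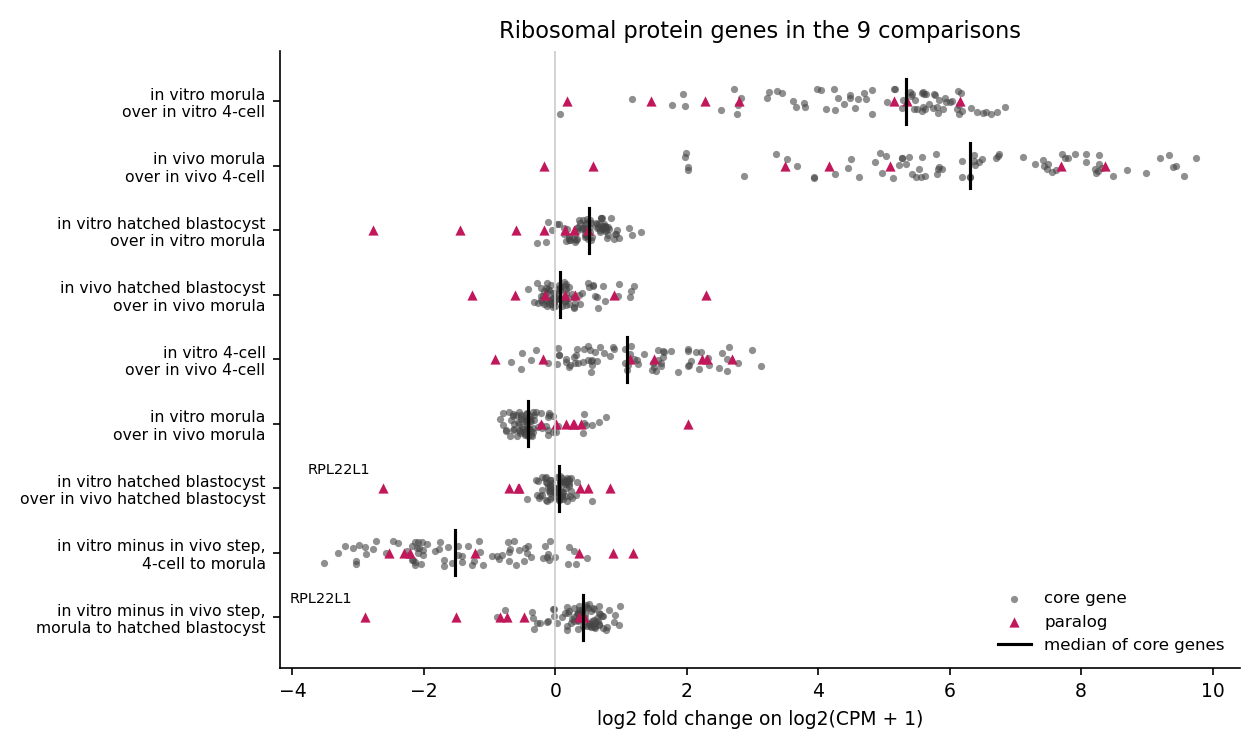
Log2 fold change on log2(CPM + 1) of 76 core genes (grey points), 7 paralogs (triangles) and the core median (black bars) in 9 comparisons, each named on the vertical axis with the group on top of the ratio first. The core genes spread widely in both 4-cell to morula steps, lie between -0.43 and 0.56 between hatched blastocysts of the sources, and RPL22L1 lies far from them in the rows where it is named.

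The paralogs did not share 1 course. RPL22L1 (chromosome 13, 109495771 to 109499495) is a close relative of RPL22 (chromosome 6, 67092892 to 67102086), and in the mouse the RPL22 protein represses it. RPL22L1 had 36.7 to 209 CPM with a median of 47.7 in in vitro hatched blastocysts, against 185 to 708 CPM with a median of 396 in in vivo hatched blastocysts. Of the in vitro hatched blastocysts only C3, the highest, reached the in vivo range. The log2 fold change was -2.63 ± 0.27 (SE), adjusted p = 5.87e-08 with limma, and RPL22L1 was called lower in every alternative, edgeR and DESeq2 included. RPL22 itself had 326 to 506 CPM with a median of 402 in in vitro hatched blastocysts, against 223 to 517 CPM with a median of 334 in in vivo hatched blastocysts.

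Over the stages RPL22L1 had 2.28, 1.54, 0.727, 1.47 and 0.598 CPM in the in vitro 4-cell embryos A1 to E1, 34.7 to 258 CPM with a median of 90.8 in in vitro morulae, and the values given above in hatched blastocysts. In in vivo embryos it had 0, 0, 24.3, 2.85 and 12.9 CPM at the 4-cell stage and 33.2 to 139 CPM with a median of 88.2 in morulae. The morulae of the sources overlapped and differed by 0.27 ± 0.32 (SE), adjusted p = 0.58. From the morula to the hatched blastocyst RPL22L1 rose by 2.29 in vivo, adjusted p = 6.42e-07, and had -0.60 in vitro, adjusted p = 0.121. The test of the difference gave -2.90 ± 0.44 (SE), adjusted p = 6.84e-06, and it too was called in every alternative. Of the reads of RPL22 and RPL22L1 together, RPL22L1 took 13.7% ± 6.53 in in vitro hatched blastocysts, against 51.7% ± 5.26 in in vivo hatched blastocysts (SD, n = 10 each). In morulae it took 23.8% ± 8.19 in vitro and 15.3% ± 9.43 in vivo.

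**Figure D5:**
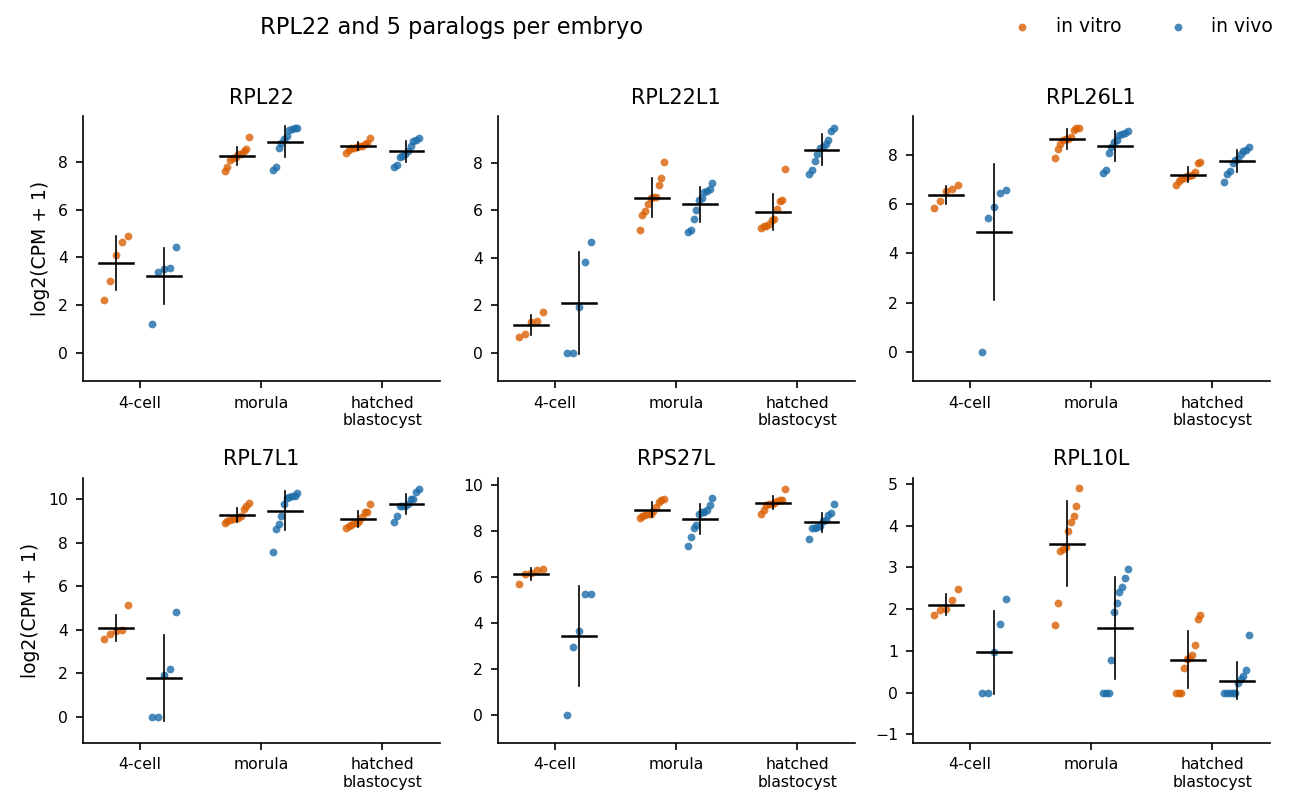
Level of RPL22 and 5 paralogs on log2(CPM + 1) in each embryo by stage, in vitro left of in vivo, with horizontal bars at the mean and vertical lines of 1 SD. RPL22 overlaps between the sources at each stage, whereas 9 of 10 in vitro hatched blastocysts lie below all in vivo hatched blastocysts in RPL22L1.

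RPL26L1 held most of the reads of its pair at the 4-cell stage and a minority in hatched blastocysts, by shares of reads that are not corrected for transcript length. It took 90.9% ± 6.57 of the reads of RPL26 and RPL26L1 in in vitro 4-cell embryos (SD, n = 5), 41.2% ± 9.83 in in vitro morulae and 15.5% ± 2.05 in in vitro hatched blastocysts (n = 10 each). In in vivo embryos the mean shares were 78.6% at the 4-cell stage, where embryos ran from 0 to 100%, 28.7% ± 5.24 in morulae and 21.9% ± 2.33 in hatched blastocysts. RPL26L1 had 109.9 to 209 CPM with a median of 139.8 in in vitro hatched blastocysts, against 231 to 551 CPM with a median of 399.8 in in vitro morulae, without overlap. It fell there, with a log2 fold change of -1.45 ± 0.16 (SE) and adjusted p = 2.76e-08, a call lost in a fit of all 6 groups, and had -0.61 in vivo, adjusted p = 0.0508.

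RPS27L, a p53 target in human cells, likewise held most of the reads of RPS27 and RPS27L at the 4-cell stage, 79.8% ± 15.6 in vitro (SD, n = 5). In vivo it held 74.3% ± 30.6 (SD, n = 4), with 39.1% as the lowest, and 1 embryo had no reads of either gene. In hatched blastocysts it held 23.8% ± 5.18 in vitro and 16.6% ± 1.56 in vivo. Its level was 422 to 901 CPM with a median of 584 in in vitro hatched blastocysts, against 202 to 567 CPM with a median of 318 in in vivo hatched blastocysts. The log2 fold change of 0.84 ± 0.16 (SE), adjusted p = 0.000247, was under the fold limit. RPL7L1, a relative of a yeast factor of large subunit assembly, lay on the other side with 409 to 886 CPM with a median of 494 in in vitro and 494 to 1403 CPM with a median of 856 in in vivo hatched blastocysts, a log2 fold change of -0.70 ± 0.17 (SE) and adjusted p = 0.00409.

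RPL36AL, an autosomal copy of the X-linked RPL36A, rose with the core genes from the 4-cell stage to the morula, by 6.15 in vitro and 8.36 in vivo. RPL7L1, RPL22L1 and RPS27L also rose in both sources at this step, by 5.16, 5.35 and 2.80 in vitro and by 7.69, 4.16 and 5.10 in vivo. The in vivo call of RPL22L1 was lost with edgeR and DESeq2. RPL26L1 rose by 2.27 in vitro, and its in vivo value of 3.49 had adjusted p = 0.00102. It was called without the 4-cell embryo B1, D1 or E1, with a value of 2.28 without E1. RPL10L, an intronless copy of X-linked RPL10 that is active in the mouse testis, stayed low, with 2.09 to 28.7 CPM with a median of 11.9 in in vitro and 0 to 6.78 CPM with a median of 3.12 in in vivo morulae. It fell to 0 to 2.61 CPM with a median of 0.765 in in vitro hatched blastocysts, with a log2 fold change over in vitro morulae of -2.78 ± 0.38 (SE) and adjusted p = 1.12e-06. RPL3L, the muscle form of RPL3, was listed at 0 in all 5 in vitro 4-cell embryos and had at most 1.64 CPM in any embryo. Of in vivo hatched blastocysts each had reads of RPL3L, with 0.201 to 1.64 CPM with a median of 0.968, against 0 to 0.158 CPM with a median of 0 in in vivo morulae. RPS19BP1 rose by 5.03 in vitro and 5.67 in vivo from the 4-cell stage to the morula, and was not called in any later comparison or between the sources.

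Other TOP transcripts, a list of 19 that includes elongation factors and PABPC1, mostly rose at the first step too. From the 4-cell stage to the morula, 16 of 19 were called higher and none lower in each source, where 16.0% of all genes were called higher in vitro and 14.9% in vivo, with median log2 fold changes of 3.79 in vitro and 4.81 in vivo. RACK1, a scaffold on the small subunit, and TPT1 led in vitro with rises of 7.05 and 6.38. EEF1G, a subunit of the factor that recharges the elongation factor EEF1A1, and NACA, part of a complex that meets the nascent peptide, led in vivo with 8.16 and 5.89. BTF3, the partner of NACA, had the lowest value in each source, -0.74 in vitro and 0.054 in vivo, neither called. From the morula to the hatched blastocyst, EEF1A1 (1.31), PABPC1 (1.19) and EIF3F (1.15) rose in vitro, and PABPC1 (1.12) alone was called in vivo, where 9.98% and 5.81% of all genes were called higher. None of the 19 was called between the sources at any stage.

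Among 15 regulators of TOP translation and chaperones of single ribosomal proteins, 9 rose and 2 fell at the first step in vitro, and 7 rose and 1 fell in vivo. Of all genes tested, 16.0% were called higher and 22.7% lower at this step in vitro, and 14.9% higher and 7.86% lower in vivo. HEATR3, which carries RPL5 into the nucleus, rose by 5.37 in vitro and 6.31 in vivo, and TSR2, the escort of RPS26, by 4.02 and 5.28. LTV1, a factor of late small subunit assembly, fell by 2.99 and LARP1B, a relative of LARP1, fell by 2.49 on the log2 scale in vitro. MYC, a transcription factor that drives ribosome production, fell by 2.27 in vivo. From the morula to the hatched blastocyst, EIF4EBP2 and EIF4EBP1, repressors of cap-dependent translation that mTOR inactivates, rose by 2.40 and 1.27 in vitro. TSR2 (-1.91), LTV1 (-1.47) and the RPL3 chaperone GRWD1 (-1.13) fell in vitro, and LARP1 (-1.28) fell in vivo. Of all genes, 9.98% were called higher and 10.2% lower at this step in vitro, and 5.81% higher and 3.14% lower in vivo. Between the sources at the same stage, EIF4EBP1 alone of the 15 was called, higher in in vitro hatched blastocysts by 1.39, with 335 CPM on average, against 124 CPM in in vivo hatched blastocysts, where 4.27% of all genes were called in either direction. The difference of the steps between the sources was called for MYC at the first step (4.07) and for EIF4EBP2 at the next (1.44). Of all genes, 0.372% were called higher at the first step and 4.49% in either direction at the next. No alternative is given for MYC or EIF4EBP2.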

How the data were processed

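Single porcine embryos were sequenced with Smart-seq2. The authors trimmed the reads (Trim Galore), aligned them to Sscrofa11.1 (HISAT2) and used edgeR. The read counter, the annotation release and the versions of these 3 tools are not given in the sources used here. The deposited values are a signal, CPM on library sizes rescaled by the authors' normalization factors. The deposited tables also held the authors' log2 fold changes, p-values, false discovery rates and scores of their own comparisons, which were not used. No column of per-sample values was left unused.

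For each comparison, its own groups and the genes over 0.5 CPM in any of their embryos were fitted on log2(CPM + 1) with limma 3.58.1 (R 4.3.3, trended prior). Intervals are 95% intervals of that fit. Counts of core genes at an unadjusted p under 0.05 are given without the share over all genes and do not set the core apart. Whole reads were recovered within a tolerance of 0.1 reads for 49 of 50 embryos and 100% of their values, and entered edgeR 4.0.16 and DESeq2 1.42.0. Embryo B1 of the in vivo 4-cell group was absent from both. The limma fit was also run on simulated counts for some of the pairwise comparisons and for no interaction. The outcome is not given here and is not used as support. Tables were read with Python 3.11.15 and pandas 2.3.3.

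The members and lists were chosen with earlier results of these data known. Named genes were the 3 core genes with the largest and the 3 with the smallest log2 fold change of each comparison, core genes called against the majority, all paralogs, fixed structural groups and, of 2 neighbouring lists, the 2 genes most changed each way. Genes outside this rule are named only where few were called or where the text says so. Alternatives were other pseudocounts, filters, scalings, tests, thresholds and sets of embryos, and sex as a term. Values of some single genes are not reported here.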

Additional observations from a re-analysis of the deposited data

Results flagged for a closer look

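Within groups of 5 or 10 embryos, 29 of 162 sets of CPM held 1 embryo that stood apart by Dixon's criterion. Chance alone meets this criterion in about 1 of 20 groups only where values are normally distributed. Whether the CPM are so distributed was not tested, so the count is not set against that rate. The values apart were all higher than the rest of their group. The sets are not independent because the same embryos recur. Most came from 2 embryos. The in vitro 4-cell embryo A1 was high in RPL9 (46.6 CPM), RPL23 (48.4), RPS3A (75.9), RPS26 (44.7), RPL12 (23.7), RPL38 (16.5), RPL7L1 (34.0) and RPL36AL (32.6). The in vitro morula E2 was high in the summed core level (112386 CPM) and in RPS3A (2604 CPM), RPS24 (1307), RPS28 (789.9), RPLP0 (5528), RPS26 (1783), RPS6 (1911), RPL38 (617), RPS19 (2021) and RPS14 (1525).

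In other embryos the values apart were few. The in vitro 4-cell embryo C1 had 325 CPM of RPS28. The in vivo 4-cell embryo D1 had 10.6 CPM of RPL9, 37.4 CPM of RPS3A and 27.5 CPM of RPL7L1, and B1 had 1088 CPM of RPLP0. Of in vitro hatched blastocysts, A4 stood apart in RPL23 (2490.3 CPM), C3 in RPL22L1 (209 CPM) and C4 in RPS27L (901 CPM). Of in vivo hatched blastocysts, A5 stood apart in RPL28 (472 CPM) and RPS14 (1365 CPM), and D3 in RPL10L (1.61 CPM).

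By the limma interaction term, the 4-cell to morula step was called different between the sources for RPL39 (-3.52) and MYC (4.07). From the morula to the hatched blastocyst the step was called different for RPL22L1 (-2.90) and EIF4EBP2 (1.44). Each value is the in vitro minus the in vivo log2 step. The call of RPL39 was lost in many alternatives, edgeR and DESeq2 among them, and that of RPL22L1 in none. No alternative is given for MYC or EIF4EBP2. The part of RNA quality, which differed between the sources before the hatched blastocyst stage, was not tested.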

How the results depend on the processing

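The calls of the 4-cell to morula step hardly depended on the setting, with 71 to 76 core genes called in vivo over the alternatives other than edgeR (70), and 74 or 75 in vitro. Leaving out 1 of the 4-cell embryos gave 73 to 75 in vivo, and leaving out 1 of them or the morula B2 gave 74 to 75 in vitro. The other morulae were not left out singly at this step. The few calls at the other steps did depend on it. In vivo, 2 core genes were called between hatched blastocysts and morulae, but 1 with a pseudocount of 5 or with sex as a term, 11 at an adjusted p under 0.05 with no fold limit, and 0 with no filter, in plain RPM, scaled on genes other than RPL and RPS, with edgeR or DESeq2, or among embryos of at least 2 M reads. In vitro the 3 calls became 2 with DESeq2 or in a fit of all 6 groups, 0 in plain RPM or scaled on other genes, 55 at an adjusted p under 0.05, and 5 among embryos of at least 2 M reads. For the difference of the first step between the sources, the 2 calls became 6 with a pseudocount of 0.1, 0 with 5, 4 with DESeq2, 19 in a fit of all 6 groups, 34 at an adjusted p under 0.05 and 5 without the in vivo morulae B2 and G1. They became 1 with no filter, with either other scaling or among embryos of at least 2 M reads. Leaving out 1 of the 4-cell embryos or the in vitro morula B2 gave 1 to 9. The count was 1 without the in vitro 4-cell embryo A1, B1 or C1, the in vivo 4-cell embryo C1 or the in vitro morula B2, and 9 without the in vivo 4-cell embryo D1. For the next step, the count of 0 became 1 under either other scaling, 6 at an adjusted p under 0.05 and 5 without B2 and G1. Between the sources, the count of 0 became 2 (4-cell), 5 (morula) and 1 (hatched blastocyst) at an adjusted p under 0.05, 20 in 4-cell embryos in a fit of all 6 groups, and 2 in morulae without B2 and G1. Apart from the shares given above, the share of all genes called in each of these settings is not given here. Without such a share, a count does not set the core genes apart. In plain RPM the core genes summed to 85274 in in vitro hatched blastocysts and 4269 in in vivo 4-cell embryos. The cause of these shifts was not tested. Leaving out B2 and G1, sex as a term, and the fits of the same embryos without a block, were chosen after seeing the data.

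Of 133 log2 fold changes of named genes, 122 kept their sign in all alternatives run. RPS24 in the in vitro first step lay between -0.026 and 0.21 when 1 of the 4-cell embryos or the morula B2 was left out. Between in vivo hatched blastocysts and morulae, RPL36AL turned to -0.0055 in plain RPM, -0.016 scaled on other genes and -0.012 without B2 and G1, where RPL7L1 turned to -0.041. In vitro at that step RPS27L turned to -0.14 and -0.13 under the other scalings, and RPS14 to 0.014 among embryos of at least 2 M reads. Between 4-cell embryos, RPS16 and RPL35 turned to 0.043 and 0.0096 with a pseudocount of 0.1, and RPL35 lay between -1.34 and 0.33 when 1 embryo was left out. Between morulae, RPL7L1 turned to 0.091 and 0.078 under the other scalings, and RPL36AL to -0.0047 with edgeR, -0.049 with sex as a term and -0.15 without B2 and G1, and RPL36AL lay between -0.12 and 0.14 when 1 embryo was left out. In the difference of the first step, leaving out 1 of the 4-cell embryos or the in vitro morula B2 gave -0.21 to 0.66 for RPS18 and -0.024 to 0.66 for RPS9.

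The labels give some embryos of both sources the same code, but nothing ties same-coded embryos to each other, and same-coded embryos did not deviate together throughout. With a replicate block over 5, 8 and 6 shared codes, 0 core genes were called between the sources at each stage.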
